A study of Caenorhabditis elegans with 24 samples.

Results

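The 2 genes described here, mtl-1 and mtl-2, encode the metallothioneins of the nematode Caenorhabditis elegans. They were chosen as the array probe sets whose only gene symbol in the platform annotation is mtl-1 or mtl-2. Each gene had 1 such probe set, 2 of 29317 on the array, and 0 probe sets named a metallothionein among several genes. Both genes are among the 25434 genes tested. Their measured levels played no part in the rule.

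Messenger RNA from whole worms was measured on 24 arrays, 1 for each RNA preparation, in 8 groups of 3. Wild-type worms and worms of the genotype daf-16(mgDF47) were each studied as adults and as larvae at 15 °C and at 25 °C, on standard agar plates. Each adult preparation pooled about 120 worms that had spent 3 days at the temperature since late L4, which ends larval life. Each larval preparation pooled about 300 late L4 worms raised there since the embryo. Adults were therefore matched by days and larvae by stage, and in adults the temperature and the progress of adult life at that temperature cannot be told apart. The mutant groups rest on 1 allele of daf-16, and the sources used here do not name the strain of the wild type.

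Metallothioneins are small proteins rich in cysteine that bind zinc, copper and cadmium through the sulphur of those residues. In C. elegans mtl-2 is known as a gene of the intestine that is switched on by cadmium and other metals, and mtl-1 as a gene that metals induce in the intestine and that is also expressed in cells of the pharynx without added metal. The intestinal GATA factor ELT-2 acts on both genes. DAF-16, the FOXO transcription factor of the insulin signalling pathway, is known to act on mtl-1, which is widely used as a readout of its activity. With and without daf-16, the arrays show how far each gene moved with temperature.

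The level of a gene is given as a log2 value, so that 1 unit stands for a 2-fold difference. The median gene lay between 3.57 and 3.72 on the adult arrays and between 3.05 and 3.12 on the larval arrays, and the stages look to have been normalized separately. Levels were for that reason compared within a stage only, and between stages only the sizes of the temperature differences were tested. Arrays of a group correlated across genes with r of 0.988 to 0.996. The third preparation of larvae at 25 °C had the lowest mean of the yolk protein genes in its group in both genotypes. The larval temperature and genotype differences of both metallothionein genes are given with and without it. The probe set of daf-16 read 10.36 to 10.63 in wild-type and 8.02 to 8.83 in mutant adults, and 8.50 to 8.78 in wild-type and 5.99 to 6.57 in mutant larvae. The genotype difference was called in both stages at both temperatures, from -2.01 to -2.48. The sources used here do not place that probe set relative to the deletion.

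A warmer life went with far more mtl-1 RNA in adults, whether or not daf-16 was present. In wild-type adults mtl-1 read 5.36, 6.31 and 6.33 at 15 °C and 9.63, 9.59 and 9.91 at 25 °C. The groups were separated by 3.26 log2 units between the highest cool and the lowest warm array, although the first cool preparation stood almost 1 unit below the other two. The fitted rise was 3.71 ± 0.31 (SE, n = 3 arrays in each group), which is 13.1-fold, with an adjusted p of 8.44e-09 in limma. Of all 25434 genes, 11 rose more. In whole worms a change in the number of cells that express a gene and a change in RNA per cell cannot be told apart.

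In daf-16 adults mtl-1 read 5.49, 5.45 and 5.34 at 15 °C and 9.29, 9.30 and 9.12 at 25 °C. The warm arrays all stood at least 3.63 units above the cool ones, and within each temperature the mutant arrays lay closer together than the wild-type ones. The rise was 3.81 ± 0.31 (SE, n = 3) (limma, adjusted p = 1.08e-08), and 8 genes rose more. Temperature moved a large share of the adult transcriptome. The fit called 30.1% of genes in wild-type adults, 15.1% up and 15.0% down, and 24.6% in daf-16 adults, 13.4% up and 11.2% down. The balance of that background depends on the scaling of the arrays. With each array centred on its median, 3401 genes rose and 6059 fell in wild-type adults, in place of 3851 and 3816, and 3082 rose and 4026 fell in daf-16 adults, in place of 3401 and 2857.

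The 2 adult responses of mtl-1 were compared directly. The temperature difference in daf-16 minus that in the wild type was 0.10 ± 0.44 (SE), with a 95% interval of -0.81 to 1.01 and an adjusted p of 0.998 in limma, in a comparison that called 0.267% of genes. The interval leaves room for a mutant response smaller or larger by almost 1 log2 unit, against rises of 3.71 and 3.81. The sign of this small difference turned when the second or the third cool wild-type preparation was left out, at -0.05 and -0.06.

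Between the genotypes at one temperature, the mtl-1 difference in adults was not called. At 15 °C the mutant was at -0.58 ± 0.31 (SE, n = 3) relative to the wild type (limma, adjusted p = 0.470), with a 95% interval of -1.22 to 0.06, and the groups overlapped. Without the low first wild-type preparation it was -0.90 (limma, adjusted p = 0.204). At 25 °C the difference was -0.48 ± 0.31 (limma, adjusted p = 0.570), and here all mutant arrays lay below all wild-type arrays by at least 0.29. The genotype comparison called 1.47% of genes at 15 °C and 3.0% at 25 °C, and mtl-1 was not among them. In order of level, warm wild-type adults came first, warm daf-16 adults next, then cool wild-type and cool daf-16 adults. The largest step in that order was the one between the warm mutants and the cool wild type, at 3.23 units, with 2.78 between their nearest arrays. The cool genotypes overlapped, and the warm ones were apart but did not pass the test. The fit takes 1 spread per gene from all 8 groups, so the larval spread of mtl-1 widens its adult SEs and intervals. Its SD was 0.69 and 0.71 in warm wild-type and daf-16 larvae, and 0.18 and 0.10 in warm adults. Without the third preparation of larvae at 25 °C the adult SE was 0.21. The genotype differences were still not called (limma, adjusted p = 0.217 at 15 °C and 0.293 at 25 °C).

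**Figure D1:**
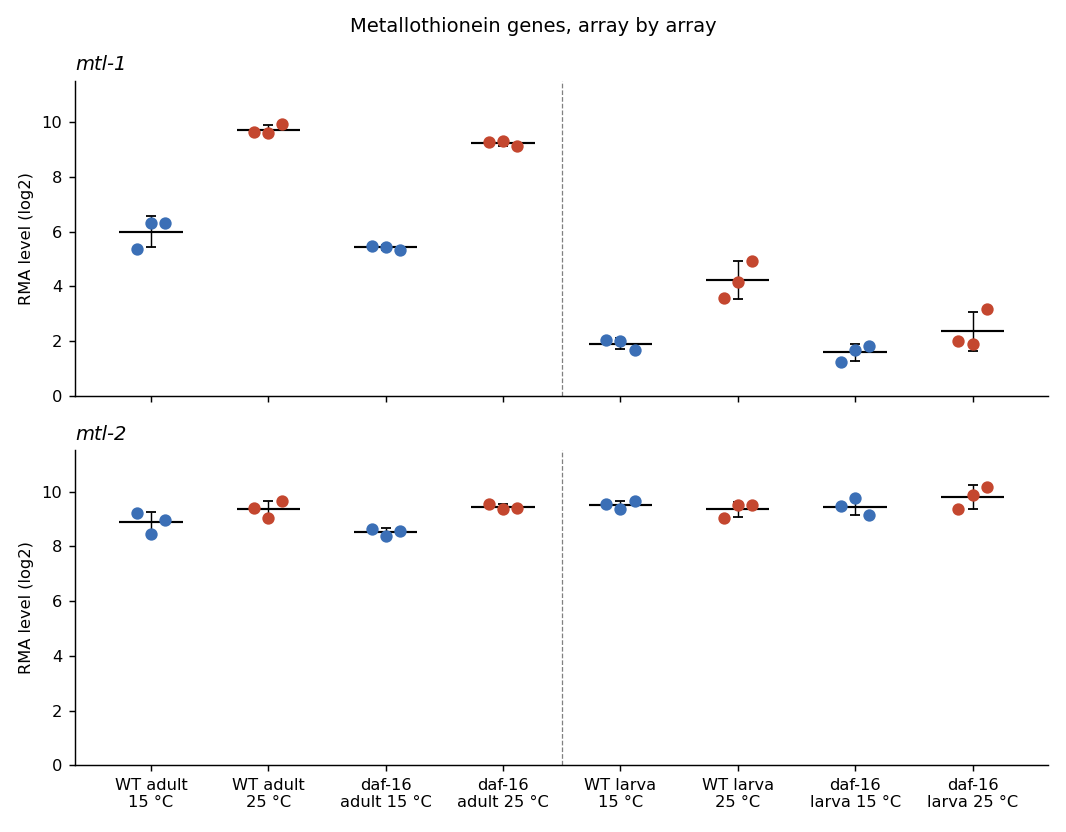
RMA level (log2) of mtl-1 (upper panel) and mtl-2 (lower panel) on each of the 24 arrays, with 15 °C in blue and 25 °C in red, and the mean and SD of each group of 3 as lines. The upper panel shows mtl-1 rising in adults of both genotypes, by 3.71 and 3.81, and in wild-type larvae, while mtl-2 stays between 8.36 and 10.18 throughout.

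In larvae mtl-1 sat much lower on the array and rose with temperature clearly in the wild type. Wild-type larvae read 2.04, 2.004 and 1.69 at 15 °C and 3.57, 4.18 and 4.95 at 25 °C. The groups were 1.52 units apart at their nearest arrays, with a wider spread among the warm arrays (SD 0.69) than among the cool ones (SD 0.19). The rise was 2.32 ± 0.31 (SE, n = 3), or 4.99-fold, with an adjusted p of 5.72e-05 in limma, and 13 genes rose more. In wild-type larvae the fit called 4.28% of genes, 2.25% up and 2.03% down.

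In daf-16 larvae mtl-1 read 1.24, 1.69 and 1.83 at 15 °C and 1.998, 1.91 and 3.19 at 25 °C. All warm arrays lay above all cool arrays, but by no more than 0.08 at the nearest pair, and the third warm preparation stood more than 1 unit above the other two. The difference of 0.78 ± 0.31 (SE, n = 3), 1.71-fold, did not pass the test (limma, adjusted p = 0.177), where 4.6% of genes were called, 2.72% up and 1.88% down. All 6 cool larval arrays, and the first and second warm daf-16 arrays, had mtl-1 below the median gene, where array values tend to understate changes in RNA.

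Among warm larvae mtl-1 was lower in the mutant. The warm mutant arrays all lay below the warm wild-type arrays, by at least 0.38, and 2 of the 3 were below the median gene, so the fold below may be understated. The difference was -1.87 ± 0.31 (SE, n = 3), a fitted 3.65-fold lower level (limma, adjusted p = 0.00583), in a comparison that called 0.118% of genes, 30 in all. With only the 12 larval arrays in the fit its adjusted p was 0.0753. The call was also lost, at adjusted p of 0.0656, 0.0556 and 0.0769, without the third warm wild-type preparation and without the first or the second warm mutant preparation, with differences of -1.51, -1.68 and -1.64. At 15 °C the genotype difference was -0.32 ± 0.31 (limma, adjusted p = 0.847) with overlapping groups, where 0.0708% of genes were called. In order of level, warm wild-type larvae came first and apart from the rest. Warm daf-16, cool wild-type and cool daf-16 larvae followed, and neighbours among these 3 groups overlapped.

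Whether the larval response differed between genotypes was tested as a difference of differences. The rise of mtl-1 in daf-16 larvae minus that in wild-type larvae was -1.54 ± 0.44 (SE), with a 95% interval of -2.45 to -0.64. Its unadjusted p was 0.00186, but its adjusted p in limma was 0.999, since 0 of 25434 genes (0.0%) were called there. At an unadjusted p under 0.05 there were 1050 genes, and the alternative fits called 0 to 2. The larval call in the wild type and its absence in the mutant are thus a difference that this design did not establish after correction.

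**Figure D2:**
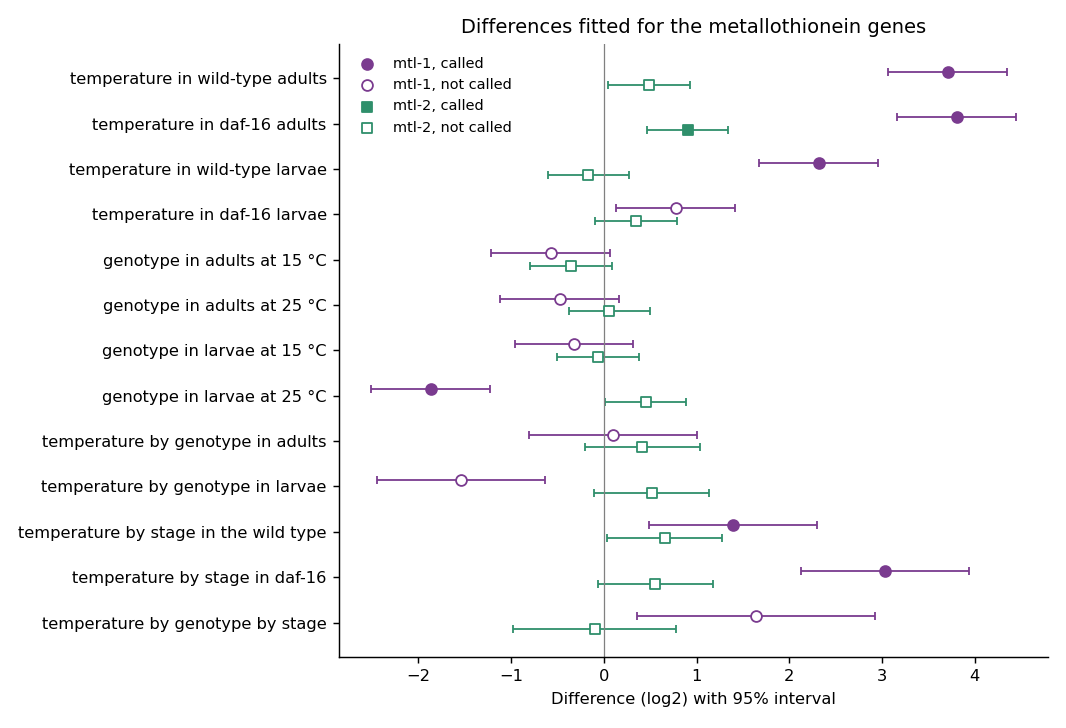
Fitted differences (log2, with 95% intervals) of mtl-1 (circles) and mtl-2 (squares) in 13 comparisons, with filled symbols where the adjusted p was under 0.05. The filled circles mark temperature in adults of both genotypes and in wild-type larvae, genotype in larvae at 25 °C (-1.87) and temperature by stage in both genotypes, and the 1 filled square marks temperature in daf-16 adults (0.90).

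The third preparation of larvae at 25 °C had the most mtl-1 RNA of its group in both genotypes, 4.95 in the wild type and 3.19 in the mutant. The same arrays had the lowest mean level of the 5 measured yolk protein genes, at 7.46 and 7.28, where the other warm larval arrays read 8.03 to 8.53. In the wild type this array did not stand far apart, as the warm arrays read 8.53, 8.03 and 7.46 and the first cool array 7.63. Their moulting genes were lowest within their own groups, at 8.06 against 8.12 and 8.54 in the wild type and at 8.33 against 8.53 and 8.64 in the mutant. The part of these differences in the mtl-1 values was not tested. Without that preparation, mtl-1 rose by 1.96 ± 0.24 (SE) in wild-type larvae (limma, adjusted p = 4.78e-05) and differed by 0.36 ± 0.24 in daf-16 larvae (limma, adjusted p = 0.598). The genotype difference at 25 °C was then -1.92 ± 0.26 (limma, adjusted p = 0.00183), and the difference between the larval responses was -1.60 ± 0.34 (limma, adjusted p = 0.448).

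The place of mtl-1 among all genes on an array gives the same pattern without its units. It lay between percentiles 67.9 and 72.9 in cool wild-type adults and between 92.6 and 94.6 in warm ones. In daf-16 adults it moved from 67.1 to 68.2 up to 89.4 to 90.8. Wild-type larvae moved from 23.3 to 33.4 up to 54.6 to 65.3, and daf-16 larvae from 6.76 to 29.3 up to 30.6 to 51.1. Cool and warm percentiles did not overlap in any of the 4 pairs of groups. In daf-16 larvae they nearly met, at 29.3 and 30.6, and the difference there was not called. How many of all genes were parted in this way was not counted.

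**Figure D3:**
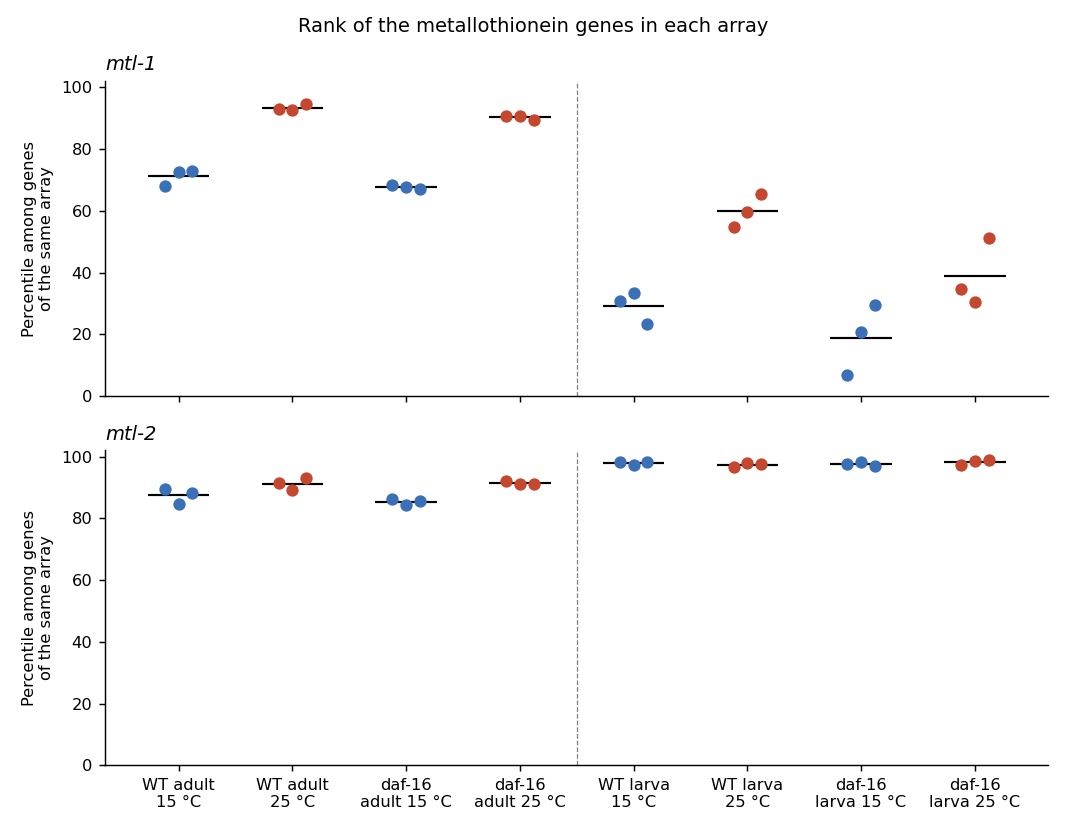
Percentile of mtl-1 and mtl-2 among all genes on each array, by group, with 15 °C in blue, 25 °C in red and a line at the mean of each group of 3. In adults mtl-1 moved from 67.1 to 72.9 up to 89.4 to 94.6, and mtl-2 stayed between 96.6 and 99.0 on all larval arrays.

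On these arrays the fitted adult rise of mtl-1 was larger than the larval one in both genotypes. Adults had spent 3 days at the temperature since late L4, and larvae had been there since the embryo. Stage and exposure thus cannot be told apart. The larval rises start from cool values below the median gene, where changes tend to be understated, and the adult ones do not. The adult minus larval difference was 1.39 ± 0.44 (SE) in the wild type (limma, adjusted p = 0.0362), where 13.8% of genes were called. In daf-16 worms it was 3.03 ± 0.44 (limma, adjusted p = 7.83e-05), where 10% were called. The wild-type call was lost when 1 of 6 arrays was left out. These were the first cool adult array (1.07, adjusted p = 0.115 in limma), the first warm larval array (1.06, adjusted p = 0.113), the third warm adult array (1.29), the first and second cool larval arrays (1.32 and 1.34) and the second warm larval array (1.36). Without the third preparation of larvae at 25 °C in both genotypes, the wild-type difference was 1.75 ± 0.32 (limma, adjusted p = 9.46e-04). In daf-16 worms it was then 3.44 ± 0.32 (limma, adjusted p = 3.27e-06). The difference between the stages in the genotype effect on the response was 1.64 ± 0.62 (limma, adjusted p = 0.892), where 0.0354% of genes were called.

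Temperature moved mtl-2 much less. In wild-type adults it read 9.22, 8.45 and 8.97 at 15 °C and 9.41, 9.04 and 9.65 at 25 °C, and the groups overlapped. The preparation with the least mtl-1 at 15 °C had the most mtl-2. The difference of 0.49 ± 0.21 (SE, n = 3), 1.40-fold, was not called (limma, adjusted p = 0.0878), but it was with the preparation number as a block (adjusted p = 0.0488) and with cyclic loess scaling, at 0.64 (adjusted p = 0.0329). It was also called without the first cool array (0.66, adjusted p = 0.0381 in limma) or the second warm array (0.65, adjusted p = 0.0433). In daf-16 adults mtl-2 read 8.65, 8.36 and 8.56 at 15 °C and 9.55, 9.34 and 9.38 at 25 °C. The warm mutant arrays all stood at least 0.70 above the cool ones, and the rise was 0.90 ± 0.21 (SE, n = 3), or 1.87-fold (limma, adjusted p = 0.00305). As 1521 genes rose more there, mtl-2 was 1 of many at that size. The 2 adult responses of mtl-2 differed by 0.41 ± 0.30 (limma, adjusted p = 0.935), with a 95% interval of -0.21 to 1.04.

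In larvae mtl-2 lay between percentiles 96.6 and 99.0 of the genes on every array, and in adults between 84.2 and 93.1. Wild-type larvae read 9.53, 9.37 and 9.64 at 15 °C and 9.04, 9.51 and 9.49 at 25 °C. The daf-16 larvae read 9.45, 9.75 and 9.14 at 15 °C and 9.34, 9.86 and 10.18 at 25 °C. Cool and warm groups overlapped in both genotypes, with differences of -0.17 ± 0.21 (limma, adjusted p = 0.769) and 0.35 ± 0.21 (limma, adjusted p = 0.460). With 1 array left out they ranged from -0.25 to -0.015 and from 0.15 to 0.57. The difference between these responses was 0.52 ± 0.30 (limma, adjusted p = 0.999), with an interval of -0.11 to 1.14. Without the third preparation of larvae at 25 °C the differences were -0.24 in the wild type (limma, adjusted p = 0.678) and 0.15 in daf-16 (limma, adjusted p = 0.884), and the difference between the responses was 0.39.

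None of the 4 genotype differences of mtl-2 was called. Of all genes, 1.47% and 3.0% were called in adults at 15 °C and 25 °C, and 0.0708% and 0.118% in larvae. With so few genes called, the lack of a call says little about mtl-2. They were -0.36 (limma, adjusted p = 0.536) and 0.06 (adjusted p = 0.954) in adults at 15 °C and 25 °C. In larvae they were -0.07 (limma, adjusted p = 0.968) and 0.45 (adjusted p = 0.997), the last with an unadjusted p of 0.0453, and at 0.33 without the third warm preparation. The adult minus larval temperature difference was 0.66 ± 0.30 (SE) in the wild type (limma, adjusted p = 0.164) and 0.56 ± 0.30 in daf-16 worms (limma, adjusted p = 0.281). In adults the order of mtl-2 levels ran from the warm daf-16 group through the warm and cool wild type to the cool daf-16 group. In larvae it ran from warm daf-16 through cool wild type and cool daf-16 to the warm wild type. All neighbours in both orders overlapped.

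Whether the 2 metallothioneins responded by the same amount was tested on the mtl-1 minus mtl-2 difference of each array. The levels of different probe sets are not comparable, but a constant sensitivity of a probe set cancels from the change of this difference. A weaker response at low signal does not cancel. On all cool larval arrays, and on the first and second warm daf-16 larval arrays, mtl-1 lay below the median gene, where changes tend to be understated. The part of this in the larval changes below was not tested. Over adults of both genotypes the change with temperature was 3.06 log2 units in favour of mtl-1, 3.22 in the wild type and 2.90 in the mutant, in an exact permutation test within genotypes (p = 0.005, the smallest that 400 arrangements can give, 0.02 adjusted over 4 tests). Over larvae it was 1.46, with 2.49 in the wild type and 0.43 in the mutant (exact permutation p = 0.015, adjusted p = 0.03). With daf-16 removed, the difference changed by -1.29 in larvae (exact permutation p = 0.025, adjusted p = 0.0333), of which -0.26 fell at 15 °C and -2.32 at 25 °C. In adults it changed by -0.38 (exact permutation p = 0.18). Without the first cool daf-16 larval array, the larval changes with temperature and genotype were 1.37 and -1.199, both with an adjusted p of 0.0533 in the exact permutation test. Without the first cool wild-type adult array, the adult change with genotype was -0.62 (exact permutation test, adjusted p = 0.01).

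The other genes of metal handling were described by lists, chosen with earlier results of these data known. Of 11 measured genes that cadmium or zinc induces, 1 rose and 0 fell in wild-type adults, and 0 were called in daf-16 adults, beside 30.1% and 24.6% of all genes. The list medians there were -0.02 and -0.04 beside -0.10 for all genes in both. The one that rose was ttm-1, a zinc exporter, at 0.38 ± 0.13 (SE, adjusted p = 0.0307 in limma), and this call was lost in 5 of 13 alternatives. In larvae 1 rose and 1 fell in each genotype, beside 4.28% and 4.6% of all genes called. The fall was that of cdr-4, a glutathione transferase-like gene named for its response to cadmium, by 2.06 on the log2 scale in the wild type and by 1.38 in daf-16 larvae. The rise was that of cdf-2, which stores zinc in gut granules, at 0.77 ± 0.18 in wild-type and 1.10 ± 0.18 in daf-16 larvae, and its wild-type call was kept in 11 of 14 alternatives. The larval list medians were -0.15 and 0.05, beside -0.03 and -0.02 for all genes.

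Genes of thiol chelation and export act on metals through glutathione and phytochelatins. Of 8 measured, 1 rose and 2 fell in wild-type adults, 1 rose and 1 fell in daf-16 adults, and 0 were called in larvae of either genotype. Of all genes, 30.1% and 24.6% were called in adults and 4.28% and 4.6% in larvae, in the order wild type and daf-16. The exporter mrp-1 rose by 0.73 ± 0.15 (SE) and 0.67 ± 0.15 in wild-type and daf-16 adults. The glutathione synthetase gene gss-1 fell by 0.55 and 0.42. The half-molecule transporter hmt-1, needed for cadmium tolerance, fell by 0.63 in wild-type adults. The list medians were 0.02 and 0.06 in wild-type and daf-16 adults and -0.17 and -0.13 in larvae.

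Of the 19 zinc transporters, 4 rose and 4 fell in wild-type adults, 4 rose and 3 fell in daf-16 adults, 1 rose in wild-type larvae, and 3 rose and 1 fell in daf-16 larvae. The same shares of all genes, 30.1%, 24.6%, 4.28% and 4.6%, apply. The lists share genes, and the rise in wild-type larvae was that of cdf-2, already counted above. The largest change was that of zipt-13, a member of the ZIP family of importers, at 1.09 ± 0.14 (SE) in wild-type and 1.15 ± 0.14 in daf-16 adults. Its relatives zipt-2.1 and zipt-2.2 rose by 0.75 and 0.60 in wild-type adults, and zipt-2.4 fell by 0.72. The list medians were 0.04 and 0.16 in adults and -0.07 and -0.02 in larvae, in the order wild type and daf-16.

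Of 14 genes that handle iron, manganese, copper or heme, 5 rose and 1 fell in wild-type adults and 2 rose and 2 fell in daf-16 adults, beside 30.1% and 24.6% of all genes called. In larvae 1 rose and 1 fell in the wild type and 1 rose in daf-16, beside 4.28% and 4.6% of all genes called. The copper transporter gene chca-1 fell by 1.35 in wild-type adults, by 0.50 in daf-16 adults and by 0.87 in wild-type larvae. The ferritin gene ftn-1 rose by 0.68 ± 0.15 (SE) in wild-type adults and was at 0.00 in daf-16 adults, and the heme transporter gene hrg-1 and the manganese transporter gene smf-3 rose by 0.52 and 0.49 in wild-type adults. The ferroportin gene fpn-1.2 rose by 0.97 ± 0.24 in wild-type larvae. Of 13 alternatives, smf-3 kept its call in 7, hrg-1 in 11 and chca-1 in daf-16 adults in 8, and fpn-1.2 kept its wild-type larval call in 9 of 14. The list medians were 0.19 and 0.02 in wild-type and daf-16 adults and -0.08 and 0.04 in larvae.

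**Figure D4:**
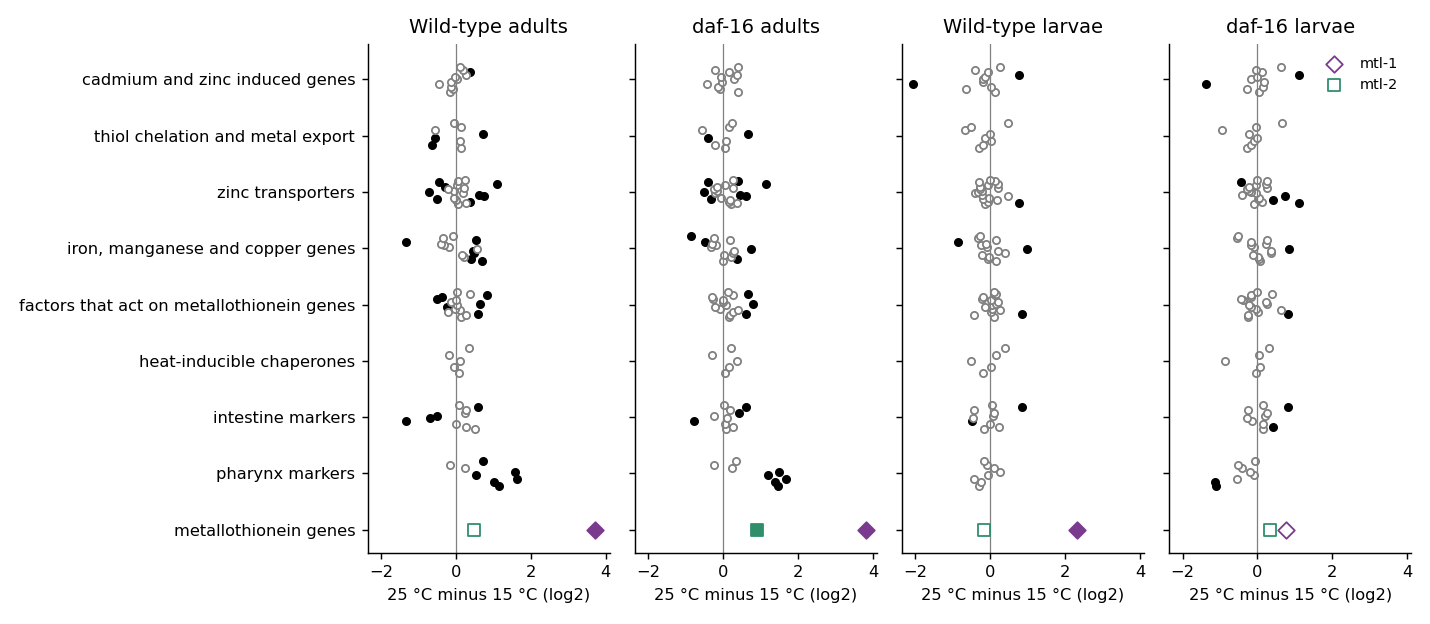
Difference between 25 °C and 15 °C (log2) of each measured gene in 8 lists, in adults and larvae of both genotypes, with filled points for an adjusted p under 0.05, and mtl-1 (diamonds) and mtl-2 (squares) in the lowest line. In adults mtl-1 lies at 3.71 and 3.81, past every point of the lists shown, and in wild-type larvae at 2.32.

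Among 16 genes for factors that act on metallothionein genes or on DAF-16, 3 rose and 3 fell in wild-type adults. In daf-16 adults 3 rose and 0 fell, and 30.1% and 24.6% of all genes were called in the 2 adult comparisons. In larvae 1 rose in each genotype, beside 2.25% and 2.72% of all genes in the wild type and daf-16. The gene called in all 4 was elt-7, an intestinal GATA factor. It rose by 0.60 and 0.61 in wild-type and daf-16 adults and by 0.84 and 0.81 in wild-type and daf-16 larvae, with SEs of 0.17, and lost its call in wild-type adults without the first cool or the second warm array. The gene of its better known relative elt-2 was called in none of the 4, at 0.26, 0.18, -0.42 and -0.24. In wild-type adults the kinase genes akt-2 and kgb-1 rose by 0.81 and 0.65, and age-1, the PI3 kinase gene upstream of DAF-16, fell by 0.51. The list medians were 0.03 and 0.15 in wild-type and daf-16 adults and 0.07 and -0.11 in larvae. In larvae at 25 °C, 1 gene of this list was lower in the mutant, beside 0.118% of all genes called in either direction. It was daf-16 itself, the mutated gene, so the count says nothing about the other factors. In the tests of temperature by genotype 0 genes of these 5 lists were called in either stage. As 0.267% of all genes were called there in adults and 0.0% in larvae, this count says little about the lists. Without the third preparation of larvae at 25 °C, the larval calls of elt-7 and cdr-4 in both genotypes and of cdf-2 in daf-16 remained, and those of cdf-2 and fpn-1.2 in the wild type were lost. The share of all genes called in that fit is not given here.

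Chaperone genes of the heat shock and unfolded protein responses were not called. Of 11 in the list 5 had a probe set of their own, and 0 were called with temperature in any of the 4 pairs of groups. The shares of all genes called were 30.1% and 24.6% in wild-type and daf-16 adults and 4.28% and 4.6% in larvae. The small heat shock gene hsp-16.2 differed by 0.08, 0.04, -0.20 and -0.03 in wild-type adults, daf-16 adults, wild-type larvae and daf-16 larvae, with group means of 1.18 to 1.75 below the array medians. At such levels the lack of calls says little. The list medians ran from 0.01 to 0.15.

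Markers of the tissues in which the metallothionein genes are known to be expressed moved in different ways. The mean level of the 10 intestine markers lay between 8.13 and 8.71 on all 24 arrays. Of these, 1 rose and 3 fell in wild-type adults, 2 rose and 1 fell in daf-16 adults, 1 rose and 1 fell in wild-type larvae, and 2 rose in daf-16 larvae, or 1 without the third warm preparation. Of all genes, 30.1%, 24.6%, 4.28% and 4.6% were called in these 4 comparisons. The mean level of the 8 pharynx markers was 5.20 to 5.47 in cool adults and 5.98 to 6.49 in warm adults. There 6 of 8 rose in the wild type and 5 of 8 in daf-16, beside 15.1% and 13.4% of all genes, with medians of 0.86 and 1.3. In larvae the same list read 6.41 to 7.07, with medians of -0.13 and -0.48. There 0 of 8 were called in the wild type, beside 4.28% of all genes, and 2 fell in daf-16, beside 1.88%. Without the third warm larval preparation 1 fell in each genotype. All shares of all genes in this paragraph are those of the fit to all arrays, also beside counts without that preparation. Moulting genes also rose in adults, 8 of 10 in the wild type and 7 of 10 in daf-16, beside the same 15.1% and 13.4%, from means of 4.95 to 5.62 at 15 °C to 6.55 to 7.14 at 25 °C. In larvae 1 of the 10 rose in each genotype, beside 2.25% and 2.72% of all genes, and 0 without the third warm larval preparation. Their medians were 1.41 and 1.57 in wild-type and daf-16 adults and 0.17 and 0.04 in larvae. The adult rises of the pharynx and moulting genes ran beside that of mtl-1, and their part in it was not tested.

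Markers of reproduction were less uniform. Of 5 measured yolk protein genes, 1 fell in adults of each genotype, beside 15.0% of all genes in the wild type and 11.2% in daf-16. In wild-type larvae 1 of the 5 rose, beside 2.25% of all genes. In daf-16 larvae 3 fell, beside 1.88%, and without the third warm preparation 1 rose and 2 fell there. The shares are again those of the fit to all arrays. The mean of the yolk genes was 11.26 to 11.53 in adults and 7.28 to 9.09 in larvae. Of 8 early embryo markers, 3 rose in wild-type adults, and 3 rose and 1 fell in daf-16 adults, beside 15.1% and 13.4% of all genes that rose. Of 7 measured sperm markers, 0 were called in wild-type adults, beside 30.1% of all genes, and 1 fell in daf-16 adults, beside 11.2%. The sperm and early embryo lists had 0 calls in larvae, beside 4.28% of all genes in the wild type and 4.6% in daf-16. No marker list was called as a whole here, since lists were counted and not tested.

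The genes whose pattern was most like that of each metallothionein were ranked by Pearson's r over the 24 arrays, after the stage mean was taken from each gene. The ranking covered 1624 named genes with group means more than 1 log2 unit apart in a stage. These points share the temperature groups and the normalization, so r is a description. The genes were picked on these same arrays, so their rises follow in part from the choice and are no separate result. For mtl-1 the 5 most alike were chil-13 (r = 0.937), dpy-17 (0.932), rpl-11.2 (0.930), shc-2 (0.929) and lys-7 (0.926). The closest, chil-13, encodes a chitinase-like protein and rose by 1.54 and 1.08 in wild-type and daf-16 adults. The cuticle collagen gene dpy-17 rose by 2.51 and 2.12 there, and by 1.17 in wild-type larvae. The lysozyme gene lys-7, itself known as a target of DAF-16, rose by 3.90 and 3.48 in adults and by 1.51 and 1.48 in wild-type and daf-16 larvae.

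For mtl-2 the likeness was looser. Its 5 most alike genes were dbd-2 (r = 0.806), scav-6 (0.790), cpg-20 (0.785), mltn-9 (0.778) and clec-180 (0.775). All of them rose in adults of both genotypes, by 0.59 to 1.56, which the way they were picked favours. The scavenger receptor-like gene scav-6 was the 1 of the 5 called in larvae, at 0.59 ± 0.17 (SE) in daf-16. The 2 metallothioneins were less alike than these, with r = 0.559 over all arrays, 0.802 over the 12 adult arrays and -0.04 over the 12 larval ones. Of the 1624 genes, 992 were more like mtl-1 than mtl-2 was. The group means of mtl-2 ran only from 8.52 to 9.42 in adults and from 9.35 to 9.80 in larvae. It was thus ranked against genes chosen for larger moves, and the count says little about the pair.

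**Figure D5:**
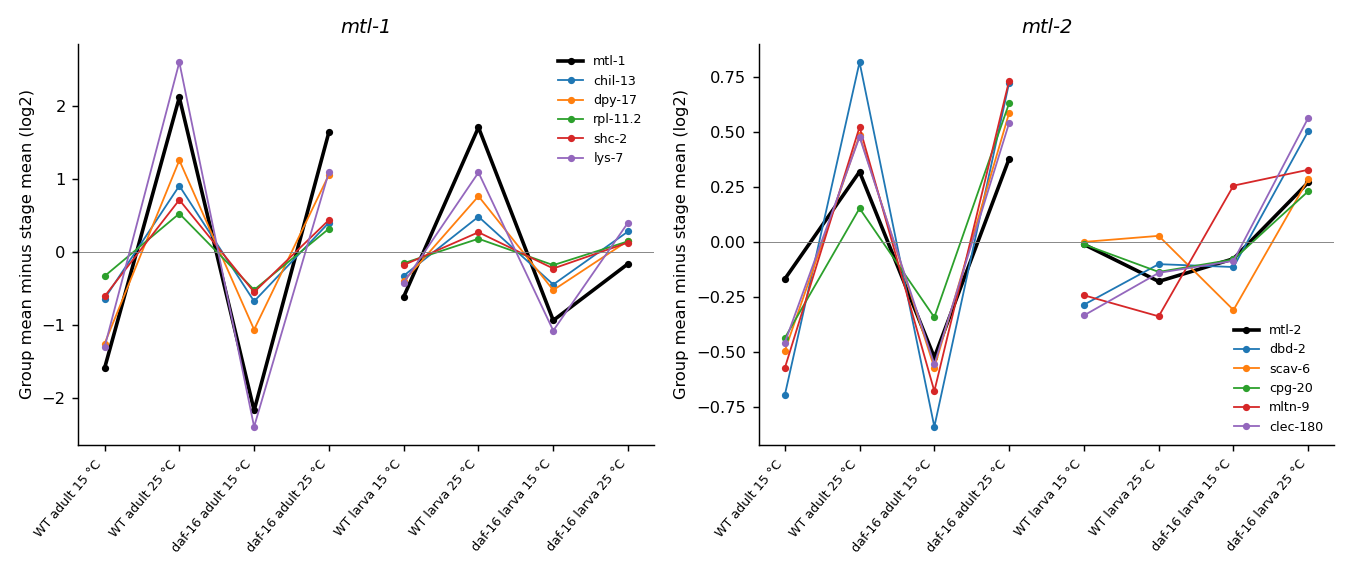
Group means (log2, less the mean of the stage) of mtl-1 and its 5 most alike genes (left) and of mtl-2 and its 5 most alike genes (right) in the 8 groups, on axes of different range. The left panel shows the peaks at 25 °C in adults of both genotypes, where lys-7 rose by 3.90 and 3.48 and mtl-1 by 3.71 and 3.81.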

How the data were processed

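The deposited values are log2 levels per probe set. The authors used RMA, per the submitters' processing notes, which corrects background, normalizes arrays to a common distribution and summarises probes, with no version stated. The array type was the Affymetrix C. elegans Gene 1.1 ST, per the labels. Because 3 genes are blank in all adult arrays and the stages have different distributions, the stages look to have been normalized apart.

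Of 29317 probe sets, 25484 had 1 gene symbol in the platform annotation. For genes with several, the probe set with the highest mean was kept (47 left out), and 25434 genes were tested with no filter on dim genes. Group means were fitted over all 24 arrays with limma 3.58.1 in R 4.3.3, with 16 residual and 6.06 prior degrees of freedom, two-sided, with Benjamini-Hochberg adjustment over the genes of each of 13 comparisons. The threshold for a call was an adjusted p of 0.05. Differences were taken as daf-16 minus wild type, 25 °C minus 15 °C, and adult minus larva. All permutation tests were exact and two-sided. The fit was tested on simulated data.

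The labels do not say whether preparations were separate cultures, so p-values measure the spread between preparations only, and 3 arrays a group limit the precision. Same-numbered preparations deviated together, with r above 0.1 for all 3 numbers, in 2 of 8 comparisons of a pair of groups. These were warm against cool adults of the wild type (0.26 to 0.34) and the genotypes among larvae at 25 °C (0.15 to 0.45). An alternative fit had the number as a block. Other alternatives were median centring, cyclic loess, array weights, an intensity trend with a robust prior, a filter on dim genes, the arrays of a stage alone, and leaving out each preparation. Leaving out the third preparation of larvae at 25 °C together in both genotypes was added after the data were seen.

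The members, lists, markers and tests were chosen with earlier results of these data known. The text names mtl-1, mtl-2 and daf-16, up to 4 called members of each list of pathway genes, by size, for temperature in the wild type, and the 5 genes most like each metallothionein. The values of elt-2 and hsp-16.2 were added as the best known members of their lists. Symbols follow the platform annotation, and neighbouring genes the order in RefSeq's WBcel235 annotation. No genome coordinates or sequences are given.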

Additional observations from a re-analysis of the deposited data

Results flagged for a closer look

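The rise of mtl-1 with temperature differed between adults and larvae by a test of the difference itself in both genotypes. The stages also differed in the timing and length of their time at the temperature, which cannot be told apart from stage. The adult rise was larger by 1.39 log2 units in the wild type (3.71 against 2.32) and by 3.03 in daf-16 worms (3.81 against 0.78), with adjusted p of 0.0362 and 7.83e-05 in limma. No other temperature response of mtl-1 or mtl-2 was called different between stages or genotypes. The wild-type call was lost without any 1 of 6 arrays, with values of 1.06 to 1.36. Without the third preparation of larvae at 25 °C in both genotypes, the wild-type difference was 1.75 (limma, adjusted p = 9.46e-04). The cool larval levels lie below the median gene of their arrays, where changes tend to be understated, and the part of this in the differences was not tested.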

How the results depend on the processing

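For 30 results on the 2 genes, 482 values were computed under other settings: 453 kept their direction and their side of the threshold, 12 lost the call, 5 gained it and 12 changed sign. The rises of mtl-1 in adults and wild-type larvae kept their calls in every alternative. The genotype difference of mtl-1 in larvae at 25 °C had an adjusted p of 0.0753 with the larval arrays alone (-1.87), and lay between -2.28 and -1.51 with 1 preparation left out. For temperature in wild-type adults mtl-2 was called with cyclic loess (0.64), with the preparation number as a block (0.49, adjusted p = 0.0488) and without the first cool or the second warm wild-type preparation, in a range of 0.27 to 0.66. With single preparations left out, temperature by genotype of mtl-1 in adults ranged from -0.064 to 0.42; its temperature by stage difference in wild-type worms ranged from 1.06 to 1.75. The genotype difference of mtl-2 ranged from -0.10 to 0.20 in adults at 25 °C and from -0.22 to 0.089 in larvae at 15 °C. The mtl-2 value for temperature by genotype by stage, -0.10, was 0.042 with array weights, 0.020 without the third preparation of larvae at 25 °C, and -0.33 to 0.11 with 1 preparation left out. The mtl-1 minus mtl-2 changes ranged from -0.62 to -0.19 for genotype in adults, called without the first cool wild-type preparation, from 1.31 to 1.60 for temperature in larvae, and from -1.43 to -1.14 for genotype in larvae. The cause of these changes was not tested, and the block changed no other call. Genes called in all ranged from 156 to 797 (374 as reported) and 386 to 2059 (762) for genotype in adults at 15 °C and 25 °C, 25 to 175 (68) for temperature by genotype in adults, 561 to 1300 (1088) and 586 to 1574 (1170) for temperature in wild-type and daf-16 larvae, 13 to 39 (18) for genotype in larvae at 15 °C, 0 to 2 (0) for temperature by genotype in larvae, 1817 to 3878 (2552) for temperature by stage in daf-16, and 6 to 24 (9) for temperature by genotype by stage. The cool larval values of mtl-1 lie below the median gene, where changes tend to be understated, and the part of this was not tested.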

Other observations

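The protein-coding genes on either side of each metallothionein gene, in the order of the RefSeq annotation, did not share 1 pattern. Of all genes, temperature called 30.1% and 24.6% in wild-type and daf-16 adults and 4.28% and 4.6% in larvae. Calls among so few neighbours are therefore no result about the place of the genes. On one side of mtl-1 the second gene, egl-46, which encodes a zinc finger protein of neurons, rose with temperature by 3.06 ± 0.32 (SE) in wild-type and 3.09 ± 0.32 in daf-16 adults (limma, adjusted p = 1.63e-07 and 2.29e-07), a size near that of mtl-1. In larvae it was at 1.04 and 0.66, which did not pass the test. Between egl-46 and mtl-1 lies K11G9.5, which rose by 0.62 and 0.80 in adults and was not called in larvae. On the other side, W02F12.8 rose by 0.99 and 1.09 in wild-type and daf-16 larvae and was at 0.11 and -0.05 in adults, and W02F12.2 was called in 1 of the 4 temperature comparisons, at 0.84 in daf-16 adults.

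Around mtl-2, T08G5.1 rose by 0.66 and 0.68 in wild-type and daf-16 adults and by 0.73 in daf-16 larvae. The genes end-3, srh-308 and T08G5.15 were called in none of the 4 temperature comparisons, beside the same shares of all genes.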
